A study of Mus musculus with 11 samples.

Results

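The RNA levels of 9 drug efflux transporters of the ATP-binding cassette (ABC) family were followed in SMB21 medulloblastoma cells and in drug-resistant clones of that line. The genes were Abcb1a, Abcb1b, Abcg2, Abcc1, Abcc2, Abcc3, Abcc4, Abcc5 and Abcc10, taken by name as the ABC pumps best known for exporting drugs. All 9 were present among the 22619 genes of the count table. The question was whether the resistant clones carried more efflux transporter RNA than the parental cells.

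SMB21 is a mouse medulloblastoma line on the Ptch1tm1Mps/J strain background, so every library, controls included, is Ptch mutant. Ptch1 is the receptor that holds Hedgehog signalling in check, and the line was grown as neurospheres. The Ofd1-mutant libraries (n = 4) represent 3 clones: R14, sequenced as 2 libraries, and R16 and R25, with 1 library each. The Sufu-mutant libraries (n = 2) came from clones R13 and R1, both drawn, like the Ofd1 clones, from a transposon screen for drug resistance. Sonidegib-treated parental cells (n = 2) had 24 h of this inhibitor of the Hedgehog transducer Smoothened. Untreated parental cells (n = 3) were the control. Each clone is 1 lineage, and differences of its own cannot be told apart from those of the mutated gene. The labels do not say whether the clones were growing in drug when RNA was taken, and the dose of sonidegib is not given in the sources used here.

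ABC transporters of this kind sit in cell membranes and use ATP to move their substrates out of the cell. P-glycoprotein, encoded by 1 gene in humans and in mice by both Abcb1a and Abcb1b, exports many hydrophobic drugs, and so does the breast cancer resistance protein Abcg2. The multidrug resistance proteins of the Abcc group export organic anions, including conjugates of drugs with glutathione, glucuronide or sulfate, and several also carry nucleotides. In brain tissue P-glycoprotein and Abcg2 are best known from the endothelium of the blood-brain barrier, and Abcg2 is also a feature of stem-like side population cells.

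The promoters of the P-glycoprotein genes and of Abcg2 are shown first, because the members with the largest differences between clones and parental cells, Abcb1b and Abcg2, are among them. Each is the 250 bases before an annotated start, written 5′ to 3′ on the strand of the gene, from RefSeq on GRCm38.p6. Capitals mark the GC box (GGGCGG) and the CCAAT box (CCAAT), searched on both strands, so that CCGCCC and ATTGG are the same motifs read on the other strand. Abcg2 has 3 annotated starts in the table, and the window of the one furthest downstream is shown. The windows are chr5:8566841-8567090 for Abcb1a, chr5:8797897-8798146 for Abcb1b and chr6:58640296-58640545 for Abcg2, all on the plus strand.
Abcb1a: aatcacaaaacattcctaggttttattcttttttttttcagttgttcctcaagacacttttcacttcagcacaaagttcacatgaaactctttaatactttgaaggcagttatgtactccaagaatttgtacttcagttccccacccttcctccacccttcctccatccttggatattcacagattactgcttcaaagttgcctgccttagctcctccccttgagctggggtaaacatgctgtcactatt
Abcb1b: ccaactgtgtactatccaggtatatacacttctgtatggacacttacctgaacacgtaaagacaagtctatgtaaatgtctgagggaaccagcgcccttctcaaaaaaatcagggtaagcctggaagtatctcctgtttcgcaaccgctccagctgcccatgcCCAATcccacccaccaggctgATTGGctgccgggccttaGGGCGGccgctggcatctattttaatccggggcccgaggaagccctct
Abcg2: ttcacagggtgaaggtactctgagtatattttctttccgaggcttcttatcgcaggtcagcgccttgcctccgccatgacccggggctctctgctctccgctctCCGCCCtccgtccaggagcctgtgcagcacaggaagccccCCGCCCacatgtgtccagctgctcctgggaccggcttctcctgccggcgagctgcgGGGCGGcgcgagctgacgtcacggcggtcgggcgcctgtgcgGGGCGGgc
The Abcb1a window held neither motif and was 40.4% G and C. The Abcb1b window held 2 CCAAT boxes and 1 GC box and was 52.8% G and C, and the Abcg2 window held 4 GC boxes and was 67.6% G and C. The windows of the other Abcg2 starts, not shown, held 0 and 2 GC boxes. Of 32851 windows of this length, 32.7% held a GC box and 33.8% a CCAAT box, so both motifs are common. A Gli motif (GACCACCCA), the site bound by the transcription factors of the Hedgehog pathway, was in 0.225% of all windows and in none of the 11 windows of the 7 members that matched the table. These letters describe the windows and say nothing of which factors bind there.

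The 11 libraries held between 24308451 and 38241595 counts, so that 3 counts, the upper limit a count of 0 allows, corresponded to 0.0779 to 0.126 CPM (CPM being counts scaled to a common TMM-adjusted library size). That limit covers counting error only. The granule-type tumour markers fixed for this tissue (Atoh1, Barhl1, Zic1 and others) averaged at least 1 CPM for 10 of 10 genes in every group. Ofd1 ranged from 9.27 to 23.4 CPM in the Ofd1 mutants, against 35.4 to 42.9 CPM in parental cells. Sufu ranged from 2.76 to 17.7 CPM in the Sufu mutants, against 27.7 to 29.6 CPM in parental cells, and it was also at 12 to 19.2 CPM in the Ofd1 mutants and 5.6 to 24.8 CPM after sonidegib. Libraries of the same group stood apart. Parental replicates 1 and 2 and sonidegib replicate 1 scored 27.4 to 37.1 on the second principal component (17.3% of variance), and the other 8 libraries, parental replicate 3 among them, scored -24.8 to -3.84. In sonidegib replicate 2 the level of a gene relative to the other libraries ran with transcript length (Spearman rho of -0.606 across genes, against 0.0017 to 0.313 in the others; genes are not independent replicates). Labels call the parental, sonidegib and R14 libraries biological replicates without saying what was separate, so p-values measure the spread between these libraries. In bulk RNA, fewer cells that express a gene and less RNA per cell cannot be told apart.

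Most of the efflux transporter RNA in these cells came from Abcc1 and Abcc5, which made up 83.7% of the members' summed CPM. Set per kilobase of transcript, so that genes can be compared, the mean level over all 11 libraries was 16.1 CPM per kb for Abcc5 and 15.3 for Abcc1. Abcc4 followed at 3.72, Abcc10 at 2.33 and Abcg2 at 0.646 CPM per kb. The P-glycoprotein genes were far lower, at 0.2 CPM per kb for Abcb1b and 0.0285 for Abcb1a. Abcc3 and Abcc2 came last, at 0.00559 and 0.00282 CPM per kb. Abcc5 exceeded Abcc1 per kilobase in 6 of 11 libraries, so the order of these neighbours was not stable, while Abcc1 exceeded Abcc4 and Abcc10 exceeded Abcg2 in 11 of 11. Abcc4 exceeded Abcc10 in 10 of 11 libraries, and Abcg2 exceeded Abcb1b in 9 of 11, all but R25 and R1. Abcb1b exceeded Abcb1a in 10 of 11, and Abcc2 and Abcc3 were at too few counts to be ordered.

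Added together, the 9 members gave no higher level in the clones. The sum was 230.6, 214.3, 235.7 and 223.5 CPM in the Ofd1 mutants (226 ± 9.28, SD, n = 4) and 207.4 and 214.6 CPM in the Sufu mutants. It was 304.9 and 231.8 CPM after sonidegib, against 231.5, 265.3 and 232 CPM in parental cells (243 ± 19.4, SD, n = 3). Both Sufu libraries lay below every parental library, and the Ofd1 libraries overlapped with the parental ones. Because Abcc1 and Abcc5 fill most of this sum, it says little about the P-glycoprotein genes or Abcg2, which are taken one by one below.

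**Figure D1:**
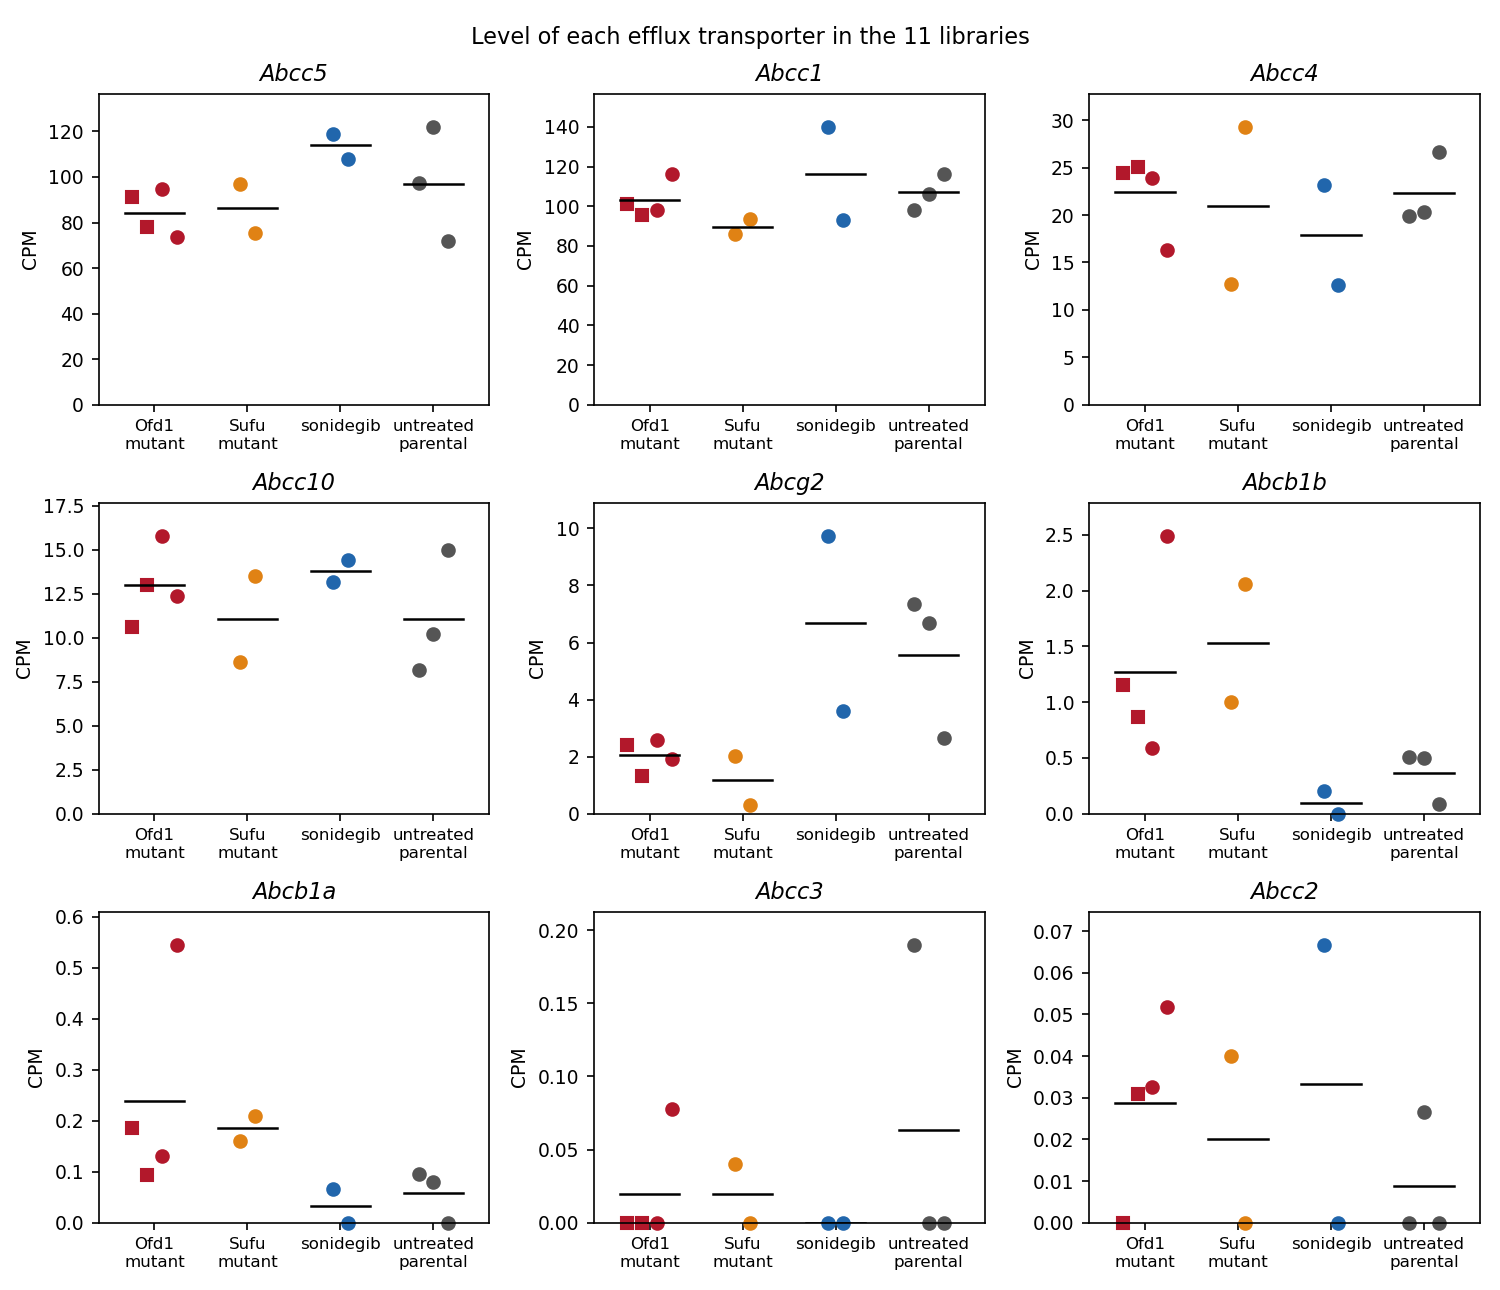
Level of each of the 9 transporters in CPM on a linear axis from 0, 1 panel a gene and 1 point a library (squares for clone R14), with a line at each group mean. Abcb1b lies higher in the clones than in parental cells and Abcg2 lower, while the groups overlap for Abcc4, Abcc5 and Abcc10.

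Of the 9 members, 6 had enough counts to be tested in every comparison, and none of these 6 passed edgeR's quasi-likelihood test at a Benjamini-Hochberg adjusted p under 0.05 in any of 5 comparisons. Abcb1a, Abcc2 and Abcc3 did not pass the filter on low counts. In the Ofd1 mutants against parental cells 0 of 6 passed, where 0.363% of 13779 tested genes did, and 2 of 6 had an unadjusted p under 0.05, as did 13.8% of the tested genes. In the Sufu mutants against parental cells 0 of 6 passed, against 0% of 13854 genes, and 2 of 6 had an unadjusted p under 0.05, against 9.68% of genes. With all 6 clone libraries together, 0 of 6 passed, against 0.194% of 13949 genes, and 2 of 6 had an unadjusted p under 0.05, against 11.8% of genes. With backgrounds this low in calls, 0 of 6 does not set the members apart from other genes. The 2 genes were Abcb1b and Abcg2 each time, with opposite signs. The members' median log2 fold change was -0.02 in Ofd1 mutants, -0.11 in Sufu mutants and -0.06 in all clones, beside 0.01, 0.004 and 0.02 over all genes tested. DESeq2 called 1 of the 6 in the Ofd1 comparison, Abcg2, among 775 genes called in all, where edgeR called 50. In the other comparisons DESeq2 called 0 of the 6, with 326 genes called in Sufu mutants and 455 in all clones. It gave no adjusted p for Abcb1b after sonidegib. The R14 pair entered as separate replicates, and with these libraries summed 0 of 6 passed as well. The 3 comparisons of clones share the parental libraries, so their likeness is not independent.

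Abcb1b, the second P-glycoprotein gene of the mouse, was higher in every clone library than in every parental library, from a very low base. It stood at 1.15 and 0.867 CPM in the R14 libraries, 0.585 in R16, 2.49 in R25, 1 in R13 and 2.06 in R1. The 3 parental libraries, in the order of their replicate numbers, had 0.506, 0.504 and 0.0886 CPM. R25 and R1 were the highest clones, and R16 lay only just above the upper parental libraries. The counts behind these levels were 18 to 96 in a clone library, against 16, 19 and 3 in the parental libraries. Means were 1.27 ± 0.844 CPM in Ofd1 mutants (SD, n = 4), 1.53 ± 0.747 CPM in Sufu mutants (n = 2) and 0.366 ± 0.241 CPM in parental cells (n = 3).

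The log2 fold change of Abcb1b was 1.80 ± 0.70 (SE, 95% interval 0.20 to 3.41) in Ofd1 mutants over parental cells, with an unadjusted p of 0.0318 and an adjusted p of 0.301. For Sufu mutants it was 2.06 ± 0.77 (0.19 to 3.93), with an adjusted p of 0.485. For all 6 clone libraries it was 1.89 ± 0.64 (0.46 to 3.32), or 3.71-fold with an interval of 1.38-fold to 9.99-fold, and an adjusted p of 0.307. Every library of the mutant group lay above every parental library for 6.17% of tested genes in the Ofd1 comparison, 11.9% in the Sufu comparison and 2.8% with all clones, so a lack of overlap is not rare here. DESeq2 gave adjusted p-values of 0.15, 0.336 and 0.0685 in these 3 comparisons and called none of them. The highest clone of each class carried part of the difference. Without R25 the Ofd1 value was 1.24 with an unadjusted p of 0.0812, and without R1 the Sufu value, then of R13 alone, was 1.45 with an unadjusted p of 0.2.

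Abcb1a, the other P-glycoprotein gene and the one known from the endothelium of the blood-brain barrier, was close to the limit of detection. The Ofd1 clones gave 6 and 3 counts for R14, 4 for R16 and 21 for R25, and the Sufu clones gave 4 for R13 and 5 for R1. Sonidegib replicates gave 2 and 0 counts, against 3, 3 and 0 in parental cells. Clone R25, at 0.545 CPM, was the highest library for Abcb1a as it was for Abcb1b, and the other clone libraries lay between 0.0928 and 0.21 CPM, where parental libraries reached 0.0949 CPM. Abcb1a and Abcb1b are next to each other on chromosome 5, with 0 protein-coding genes between them, and their transcripts share sequence. Of the 75-base windows of Abcb1b, 12.4% also occur in Abcb1a, and 10.6% of those of Abcb1a occur in Abcb1b, so that some reads cannot be assigned between them. With the counts of both genes summed, the log2 fold changes were 1.84 in Ofd1 mutants, 2.01 in Sufu mutants and 1.90 in all clones, with adjusted p-values of 0.311, 0.499 and 0.316. Exons of Abcb1b overlap those of Gm5106 on the opposite strand, and exons of Abcb1a overlap those of Gm42686. Neither Gm5106 nor Gm42686 is in the count table. Whether their reads entered the low counts of Abcb1b and Abcb1a cannot be told from the sources used here.

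Abcg2, the breast cancer resistance protein, went the other way and was lower in every clone library than in every parental library. It stood at 2.42 and 1.33 CPM in the R14 libraries, 2.6 in R16, 1.92 in R25, 2.04 in R13 and 0.294 in R1. The 3 parental libraries, again by replicate number, had 7.34, 6.69 and 2.66 CPM. Parental replicate 3 lay far below the other 2 controls and just above R16. R1 was the lowest library, with 7 counts. Means were 2.07 ± 0.57 CPM in Ofd1 mutants (SD, n = 4), 1.17 ± 1.24 CPM in Sufu mutants (n = 2) and 5.56 ± 2.54 CPM in parental cells (n = 3).

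The log2 fold change of Abcg2 was -1.42 ± 0.40 (SE, 95% interval -2.34 to -0.49) in Ofd1 mutants over parental cells, with an unadjusted p of 0.00741 and an adjusted p of 0.176. In Sufu mutants it was -2.22 ± 0.88 (-4.35 to -0.10, adjusted p of 0.499), and in all clones -1.64 ± 0.53 (-2.81 to -0.46, adjusted p of 0.277). Genes with every mutant library below every parental library were 7.25% of those tested in the Ofd1 comparison, 14.8% in the Sufu comparison and 3.4% with all clones. In the Ofd1 comparison the call depended on the tool and on 1 control. DESeq2 gave an adjusted p of 0.0176, with 775 genes called in all. Without parental replicate 3, edgeR gave a log2 fold change of -1.77 with an adjusted p of 0.0368, and 329 genes were called. The main fit called 50 genes. Without R1 the Sufu value rested on R13 alone and was -1.43, and without R13 it was -4.22.

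Both of these differences depended on which parental library served as control. Taken against parental replicate 3 alone, the log2 fold change of Abcg2 was -0.36 in Ofd1 mutants, -1.17 in Sufu mutants and -0.58 in all clones. Without parental replicate 3, the log2 fold change of Abcb1b was 1.34 in Ofd1 mutants (unadjusted p of 0.0757), 1.60 in Sufu mutants and 1.42 in all clones. Against that library alone it was 3.80, 4.05 and 3.89, values that rest on its 3 counts of Abcb1b. As a ratio of CPM with an exact 95% counting interval, Abcb1b in all clones was 15.6 times parental replicate 3, with an interval of 5.29 to 76.3. That interval pools the clone counts and covers counting error only, not the spread between clones or between parental libraries. Abcg2 and Abcb1b were each lower in parental replicate 3 than in the other 2 parental libraries, so changing the control brought Abcg2 nearer to the clones and moved Abcb1b away from them. The part that the split among the parental libraries plays in either difference was not tested.

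**Figure D2:**
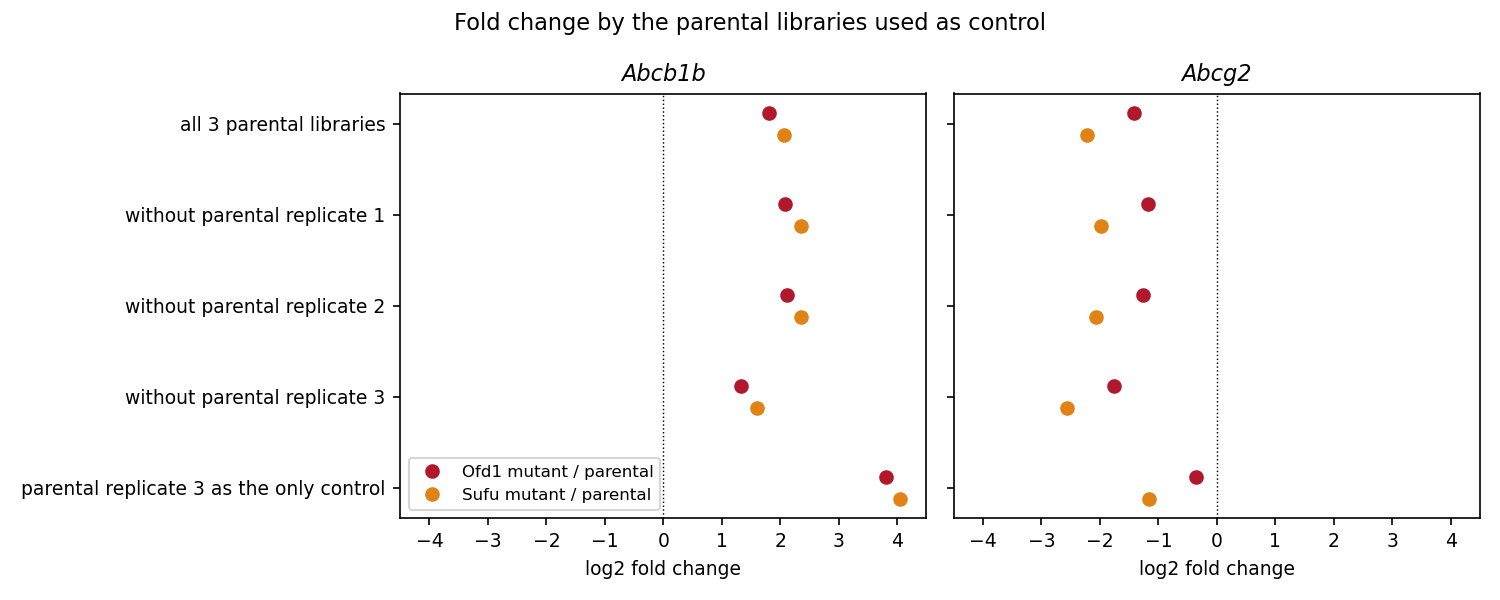
Log2 fold change of Abcb1b and Abcg2 in Ofd1 mutants and in Sufu mutants over parental cells (horizontal axis), with 1 row for each choice of parental libraries as control. The Abcg2 points move towards 0 when parental replicate 3 is the only control, to -0.36 in the Ofd1 mutants, and the Abcb1b points move away from 0.

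Markers of the cell types in which these transporters are best known were read beside them. The summed CPM of 10 endothelial markers was 8.69 to 21.9 in Ofd1 mutants and 5.46 to 9.02 in Sufu mutants. In parental cells it was 6.68 to 15.8. On average 2 of these 10 markers reached 1 CPM in the clones and 2 of 10 in parental cells, Cdh5 and Egfl7 each time. Cdh5 averaged 5.27 CPM in Ofd1 mutants, 1.99 in Sufu mutants and 3.85 in parental cells. Egfl7 averaged 7.18, 3.95 and 5.19 CPM in the same order. Another of the markers, Cldn5, had 0 counts in all 11 libraries. The 8 stem and side population markers (Sox2, Nes, Prom1 and others) summed to 432 to 789 CPM in Ofd1 mutants and 584 to 664 CPM in Sufu mutants. In parental cells they summed to 788 to 901 CPM. In each of these groups 7 of 8 averaged 1 CPM or more, and none had 0 counts over a whole group. The remaining marker, Fabp7, averaged 0.0276 CPM in Ofd1 mutants, 0.94 in Sufu mutants and 0.726 in parental cells. It was at 0 in both R14 libraries. The 7 astrocyte markers summed to 210 to 365 CPM in Ofd1 mutants and 329 to 412 CPM in Sufu mutants, against 388 to 638 CPM in parental cells. At 1 CPM or more were 4 of 7 in Ofd1 mutants, 5 of 7 in Sufu mutants and 5 of 7 in parental cells, and Aqp4 had 0 counts in Sufu mutants and parental cells. The stem and astrocyte sums were lower in most clone libraries than in parental cells, as Abcg2 was in all of them. Abundant genes weigh most in these sums, and single markers did not all go this way. In Ofd1 mutants, Sufu mutants and parental cells Vim averaged 96.5, 82.6 and 224 CPM, and Slc1a3 117, 83.8 and 175 CPM. In the same order Sox9 averaged 112, 142 and 119 CPM, and S100b 3.78, 18.5 and 10.7 CPM. The part of these markers in the Abcg2 difference was not tested. The 9 microglial markers, 0 of 9 at 1 CPM, and the 8 fibroblast and pericyte markers, 0 of 8 at 1 CPM, summed to at most 0.495 and 2.08 CPM in any library.

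Abcc1, the multidrug resistance protein that exports glutathione conjugates and leukotriene C4, was abundant and differed little between the clones and parental cells. It stood at 101, 95.7, 97.9 and 116 CPM in the Ofd1 mutants and 85.8 and 93.7 CPM in the Sufu mutants, against 98, 106 and 116 CPM in parental cells. The Ofd1 libraries overlapped with the parental ones, and both Sufu libraries lay just below them. The log2 fold change was -0.05 ± 0.11 in Ofd1 mutants (adjusted p of 0.898), -0.24 ± 0.14 in Sufu mutants (adjusted p of 0.639) and -0.11 ± 0.11 in all clones (adjusted p of 0.762). In all clones the upper end of the 95% interval was 1.1-fold, so a larger increase of Abcc1 RNA lay outside it.

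Abcc5, an exporter of nucleotides and cyclic nucleotides, was at 91.2, 78.1, 94.8 and 73.5 CPM in the Ofd1 mutants and 97 and 75.5 CPM in the Sufu mutants, against 97.3, 122 and 71.7 CPM in parental cells. Parental replicate 3 was the lowest library and replicate 2 the highest, so the parental range enclosed every clone. The log2 fold change in all clones was -0.18 ± 0.16 (95% interval -0.54 to 0.19, or up to 1.14-fold higher), with an adjusted p of 0.726. The adjusted p was 0.708 in Ofd1 mutants and 0.869 in Sufu mutants.

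Abcc4, which exports cyclic nucleotides and prostaglandins, was at 24.4, 25.1, 23.9 and 16.3 CPM in the Ofd1 mutants and 12.7 and 29.3 CPM in the Sufu mutants, against 19.9, 20.3 and 26.6 CPM in parental cells. The Sufu clones R13 and R1 were the lowest and the highest of these libraries, and R25 was well below the other Ofd1 libraries. The log2 fold change in all clones was -0.01 ± 0.25 (95% interval -0.56 to 0.53, or up to 1.45-fold higher), with an adjusted p of 0.991. The adjusted p was 0.984 in Ofd1 mutants and 0.959 in Sufu mutants.

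Abcc10, another member of the multidrug resistance protein group, was at 10.6, 13, 15.8 and 12.4 CPM in the Ofd1 mutants and 8.62 and 13.5 CPM in the Sufu mutants, against 8.2, 10.2 and 15 CPM in parental cells. All clone libraries but R16 lay within the parental range. The log2 fold change in all clones was 0.16 ± 0.24 (95% interval -0.36 to 0.68, or up to 1.6-fold higher), with an adjusted p of 0.834. Exons of Abcc10 overlap those of Dlk2 on the opposite strand. The library kit marks strand, and whether the counting used it is not given in the sources used here, so reads of the pair may not be told apart. Dlk2 averaged 0.914 ± 0.281 CPM in all clones (SD, n = 6), against 0.518 ± 0.303 CPM in parental cells (n = 3), small beside Abcc10.

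Abcc2 and Abcc3, exporters best known from liver and intestine, were near absent from the counts. Abcc2 had 5 counts over the 6 clone libraries and 2 over the sonidegib libraries, against 1 over the parental libraries. Abcc3 had 4 counts over the clones and 0 over the sonidegib libraries, against 6 over the parental libraries, all in parental replicate 1. No single library exceeded 0.0667 CPM for Abcc2 or 0.19 CPM for Abcc3, and no difference was detectable at this depth.

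**Figure D3:**
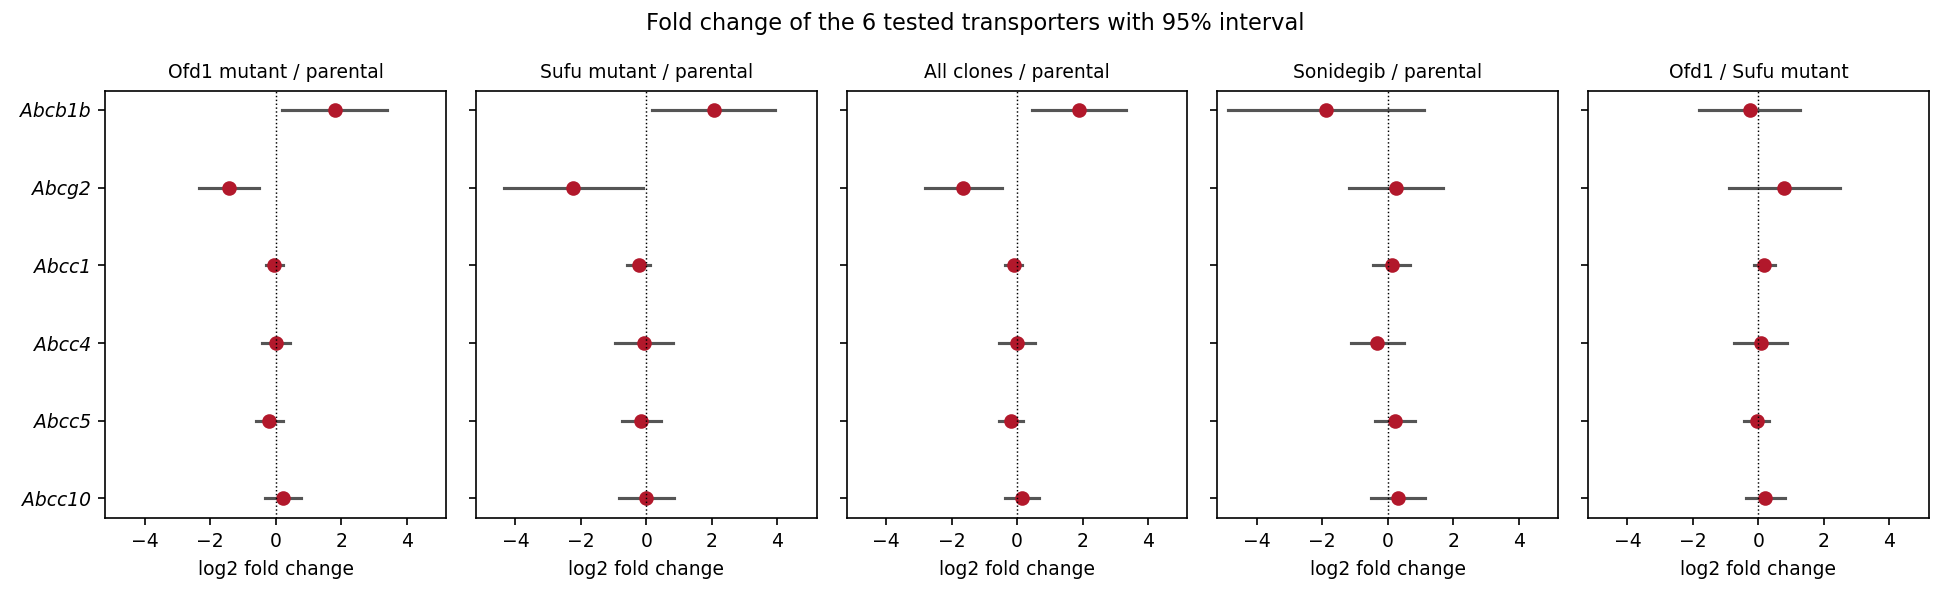
Log2 fold change of the 6 tested transporters (horizontal axis) in the 5 comparisons, with points for the estimate and lines for its 95% interval. The intervals of Abcb1b lie above 0 and those of Abcg2 below 0 in the 3 comparisons of clones with parental cells, and those of the 4 Abcc genes cross 0 in every panel.

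Sonidegib for 24 h left the members without a call. Of the 6 tested, 0 passed, against 0.0652% of 13809 genes, and 0 of 6 had an unadjusted p under 0.05, against 14% of genes. Abcg2 was at 9.74 and 3.61 CPM in the sonidegib libraries, on either side of the parental replicates 1 and 2, and its log2 fold change was 0.26 ± 0.61 with an adjusted p of 0.851. Abcb1b had 6 and 0 counts in the sonidegib libraries, against 16, 19 and 3 in parental cells, with a log2 fold change of -1.88 ± 1.26 and an adjusted p of 0.49. Without sonidegib replicate 2 it was -0.88, and the sonidegib group without replicate 1 holds 0 counts of Abcb1b, so that no fold is given. Abcc5, at 119 and 108 CPM, and Abcc10, at 13.2 and 14.4 CPM, overlapped with the parental libraries, with log2 fold changes of 0.22 and 0.30 and adjusted p-values of 0.683 and 0.678. Abcc1 was at 140 and 93 CPM and Abcc4 at 23.2 and 12.6 CPM, so the sonidegib pair spanned the whole parental range of Abcc1 and part of that of Abcc4. Their log2 fold changes were 0.12 and -0.32, with adjusted p-values of 0.824 and 0.654. Sonidegib replicate 2, the library whose levels ran with transcript length, was the lower of the pair for Abcg2, Abcb1b, Abcc1, Abcc4 and Abcc5. The part of that library in these values was not tested.

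The same treatment lowered Gli1, the Hedgehog target gene that serves as a readout of the drug. Gli1 was at 7.68 and 8.82 CPM in the sonidegib libraries, against 224, 220 and 243 CPM in parental cells, with a log2 fold change of -4.80 ± 0.24 and an adjusted p of 0.00287. In the same libraries no transporter passed the test.

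No member passed the test between the clone classes. Of the 6 tested, 0 passed in Ofd1 against Sufu mutants, against 0.00713% of 14026 genes, and 0 of 6 had an unadjusted p under 0.05, against 8.93% of genes. Abcc1 was higher in all 4 Ofd1 libraries than in both Sufu libraries, as 9.85% of genes were, with a log2 fold change of 0.18 ± 0.13 (95% interval -0.14 to 0.49) and an adjusted p of 0.724. The value for Abcg2 was 0.79 ± 0.72, with an adjusted p of 0.774, and it was -0.01 without R1. For Abcb1b it was -0.27 ± 0.65, for Abcc10 0.21 ± 0.25, for Abcc4 0.08 ± 0.34 and for Abcc5 -0.05 ± 0.16, with adjusted p-values of 0.835 to 0.966. Clones of the same class also differed: R13 had 2.04 CPM of Abcg2 and R1 had 0.294 CPM, and Abcc4 was at 12.7 CPM in the one and 29.3 CPM in the other. Between the 2 libraries of clone R14, Abcg2 was at 2.42 and 1.33 CPM.

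None of the other ABC genes passed the test in the clones either. Of 44 listed, 29 were tested in all clones against parental cells, where 0 passed, against 0.194% of all genes tested. At an unadjusted p under 0.05, 0 were higher and 2 lower, against 11.8% of genes in either direction. Their median log2 fold change was 0.14, against -0.06 for the 6 members and 0.02 over all genes. The most abundant per kilobase were Abce1, which recycles ribosomes, at 101 CPM per kb, the translation-linked Abcf1 and Abcf2 at 80.8 and 68.3, the peroxisomal fatty acid importer Abcd3 at 50 and Abcf3 at 16.9. Their levels exceeded those of the most abundant efflux member, Abcc5, at 16.1 CPM per kb. In all clones the log2 fold changes were 0.22 for Abce1, 0.25 for Abcf1, 0.14 for Abcf2 and -0.11 for Abcf3, with adjusted p-values of 0.503 to 0.742. Abcd3 was at 122, 157, 106 and 102 CPM in the Ofd1 mutants and 104 and 102 CPM in the Sufu mutants, against 350, 323 and 132 CPM in parental cells, with a log2 fold change in all clones of -1.21 ± 0.26 and an adjusted p of 0.121. As with Abcg2, parental replicate 3 lay near the clones and far from the other 2 controls. The lysosomal peptide transporter Abcb9 was named after its values were seen. It was below every parental library in all 6 clone libraries, as 3.4% of tested genes were, with a log2 fold change of -0.97 ± 0.22 and an adjusted p of 0.137. Other ABC genes lay higher. The 2 tested genes of the other Abcc group had a median of 1.30 in all clones, with 0 passing. Also named after the values were seen, Abcc9 averaged 5.43 CPM in all clones and 2.58 in parental cells, and Tap1 1.38 and 0.609 CPM. Clone and parental libraries overlapped for both.

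**Figure D4:**
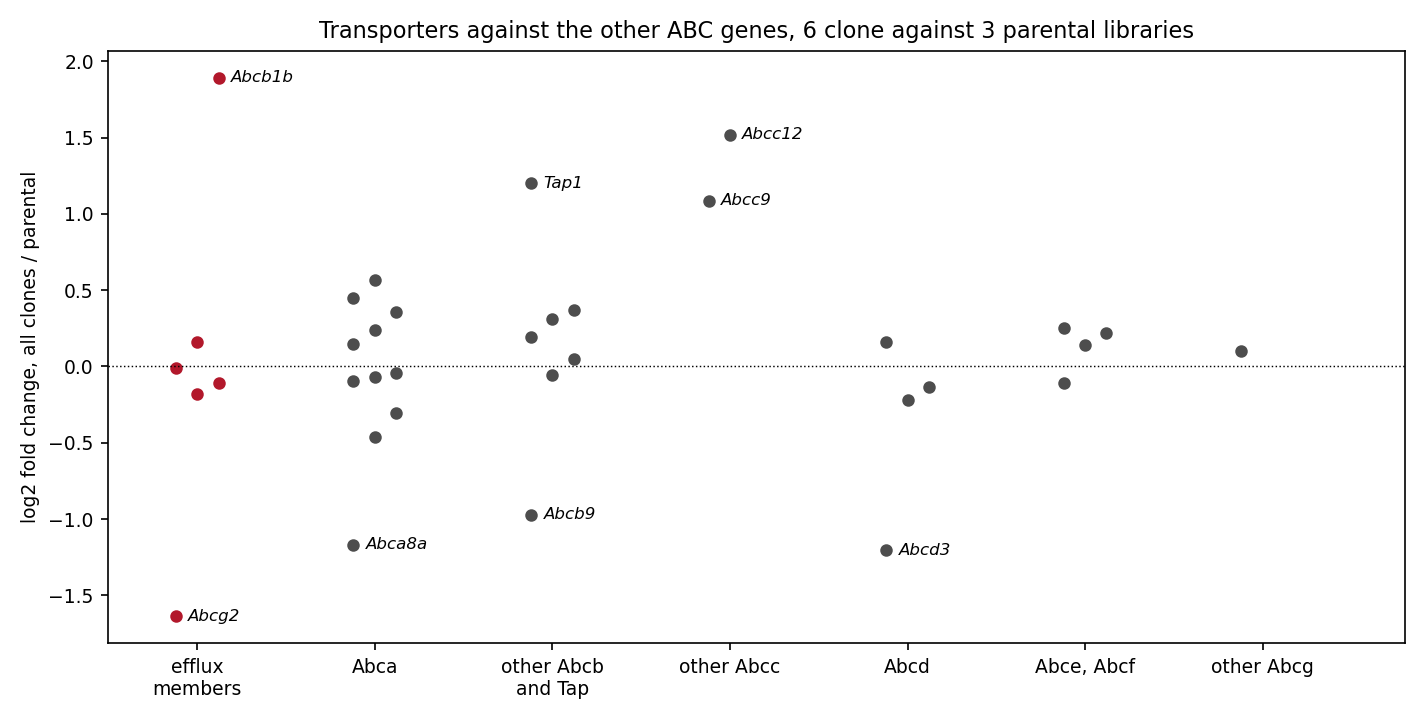
Log2 fold change of each tested ABC gene in the 6 clone libraries over the 3 parental libraries (vertical axis), by ABC subfamily, with the efflux members in red. Abcb1b and Abcg2 lie at 1.89 and -1.64, Abcd3 at -1.21, and the 4 abundant Abcc members lie close to 0. The 2 tested genes of the other Abcc group have a median of 1.30.

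Genes that act around the transporters gave no call in the clones either. Of 23 listed regulators of efflux genes, 21 were tested in all clones against parental cells, with 0 passing and 0 higher and 1 lower at an unadjusted p under 0.05. The most abundant were Ybx1, a Y-box factor linked to the human P-glycoprotein gene, with a log2 fold change of 0.18, and Sp1, which binds GC boxes, with -0.03. Of 27 genes of glutathione synthesis and conjugation, which makes substrates for the Abcc group, 19 were tested, with 0 passing and 1 higher and 7 lower at an unadjusted p under 0.05, and a median of -0.36. Gstp1, a glutathione transferase, was at 46.8, 52.9, 53.4 and 92.5 CPM in the Ofd1 mutants and 50.8 and 86.1 CPM in the Sufu mutants, against 116, 123 and 126 CPM in parental cells, with a log2 fold change of -0.92 ± 0.22 and an adjusted p of 0.157. Slc7a11, the cystine importer, had a log2 fold change of -0.31 and an adjusted p of 0.417.

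Of 10 targets of the oxidative stress factor NRF2, 9 were tested, with 0 passing and 0 higher and 2 lower at an unadjusted p under 0.05, and the thioredoxin reductase Txnrd1 was at a log2 fold change of -0.07. Of 19 carriers that bring drugs into cells, 11 were tested, with 0 passing and 2 higher and 1 lower. The nucleoside carrier Slc29a1 had a log2 fold change of 0.53 with an adjusted p of 0.528, and Slco3a1, an organic anion carrier, 1.05 with an adjusted p of 0.502. Slco3a1 was at 9.46, 5.31 and 42.4 CPM in parental cells. The last value, of parental replicate 3, lay within the clone range of 26 to 52.9 CPM. Of 11 genes of drug oxidation, 2 were tested, Por and Cyp1b1, and both were at 0.00. The background for these counts is the 11.8% of tested genes given above.

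For each member above 1 CPM on average, the genes with the most similar level over the 11 libraries were looked up by Pearson's r of log2(CPM + 0.5), as a description that shares depth and library differences with every other gene. Abcg2 ran closest to Phtf1 and Tdrd7 (r = 0.942 and 0.941), and Abcc1 to Tmem8b and Crebl2 (0.933 and 0.878). Abcc4 ran closest to Uggt2 and Poldip3 (0.916 and 0.915), Abcc5 to Efna2 and Cat (0.893 and 0.886), and Abcc10 to Ptprs and Kdm4b (0.902 and 0.866). Each pair was taken from 10361 or 10362 candidate genes, all averaging at least 5 CPM. Abcg2, Abcb1b, Abcb1a, Abcc2 and Abcc3 lay below that level and could not be found in this way. Only the nearest pair was kept, and no other member was in it. With so many candidates, this cannot show whether the members vary together.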

How the data were processed

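RNA was measured in 11 libraries, made per the labels from 500 ng of RNA with a stranded poly(A) kit and read from 1 end at 75 bp on 1 run. The authors deposited 1 table of raw read counts per gene symbol. Their processing notes name STAR, DESeq2 and build mm9; which counting tool, annotation and strand setting they used is not given in the sources used here. Of 22620 entries, 1 named no gene (0.0131% to 0.0192% of counts) and was left out. No 2 replicates agreed within sampling noise. The smallest chi-square per degree of freedom of a replicate pair was 22.6.

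Groups were compared on the counts with edgeR 4.0.16 in R 4.3.3 (quasi-likelihood, robust, TMM factors, filterByExpr, two-sided), fitted to the compared groups alone, and p-values were adjusted over all genes tested. A gene was called at an adjusted p under 0.05. Levels are TMM-scaled CPM. DESeq2 1.42.0, other scalings, no filter, 1 fit of all libraries, R14 summed, a replicate block and leaving out each library were the alternatives. Scripts were tested on simulated data. Transcript length, order and overlap came from GENCODE M21 and promoters from RefSeq, both GRCm38, by symbol; 93.7% of genes had a length. The members, the gene lists and the naming rule (all members; called genes and the most abundant of each other list) were chosen with earlier results of these data known.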

Additional observations from a re-analysis of the deposited data

Results flagged for a closer look

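Abcc4 in the Ofd1 clone R25 was at 16.3 CPM, against 23.9 to 25.1 CPM in the other 3 Ofd1 libraries, a gap that passed Dixon's 95% limit of 0.829 for 4 samples. For 4 independent samples chance passes this limit in about 1 in 20 groups. R14 gave more than 1 of these libraries, so they are not independent and the limit does not strictly hold. The other members were screened in the same way, so a flag somewhere among them by chance is likelier than 1 in 20. Parental cells spanned 19.9 to 26.6 CPM, so R25 also lay below them.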

How the results depend on the processing

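The number of genes called depended on the tool and the libraries. With only 6 members tested, a count of members called cannot be compared with it. Ofd1 mutants against parental cells gave 50 calls, with 84 without the filter, 775 by DESeq2, 9 in 1 fit of all libraries, 1 with R14 summed and 0 to 329 with 1 library left out. Members called were 1 (Abcg2) by DESeq2 and 0 to 1 with 1 library left out. Sufu mutants gave 0 calls, with 3 without the filter, 326 by DESeq2 and 0 to 11 with 1 library left out. All clones gave 27 calls, with 455 by DESeq2, 3 in 1 fit, 1 with R14 summed and 1 to 110 with 1 library left out. Sonidegib gave 9 calls, with 5 on total counts, 109 without the filter, 711 by DESeq2, 316 in 1 fit and 0 to 3263 with 1 library left out (3263 without sonidegib replicate 1). Ofd1 against Sufu mutants gave 1 call, with 2 without the filter, 268 by DESeq2, 0 with R14 summed and 0 to 11 with 1 library left out. A lone library left in a group was assumed to vary like the others. Causes were not tested.

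Replicate numbers pair nothing by the labels. Across 10941 genes, the difference between sonidegib replicates 1 and 2 correlated at -0.0883 with that between parental replicates 1 and 2. Sonidegib replicate 2 ran with transcript length and genes are not independent replicates, so the value cannot decide on pairing. The replicate block gave 107 calls after sonidegib, 0 of them members, and an Abcg2 log2 fold change of -0.27.

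Of 393 alternative log2 fold changes of members, 41 had the other sign: 33 of 369 that carry a test, with 0 of them called, and 8 of 24 that carry none. Against parental replicate 3 alone, Abcc4 was -0.24 in Ofd1 mutants, Abcc5 was 0.24 in Ofd1 mutants, 0.28 in Sufu mutants and 0.25 in all clones, and Abcc10 was -0.21, -0.43 and -0.28 in the same groups. Sonidegib replicate 1 against parental replicates 1 and 2 gave 0.18 for Abcc4. Abcc4 in Ofd1 mutants was -0.04 with R14 summed, and Abcc10 in Sufu mutants -0.0075 on total counts and -0.0085 without the filter. With 1 library left out, Abcb1b over parental cells ran from 1.24 to 2.11 in Ofd1 mutants, 1.45 to 2.48 in Sufu mutants and 1.42 to 2.19 in all clones. Other values of Ofd1 mutants over parental cells ran from -0.0601 to 0.15 for Abcc4, -0.38 to 0.0064 for Abcc5 and -0.12 to 0.006 for Abcc1. Sufu mutants ran from -0.80 to 0.41 for Abcc4, -0.35 to 0.0481 for Abcc5 and -0.36 to 0.29 for Abcc10. All clones ran from -0.11 to 0.13 for Abcc4, -0.36 to 0.0128 for Abcc5 and -0.0235 to 0.43 for Abcc10. Sonidegib ran from -0.68 to 0.79 for Abcg2, -0.25 to 0.37 for Abcc1 and -0.88 to 0.0392 for Abcc4. Ofd1 over Sufu mutants ran from -0.83 to 0.33 for Abcb1b, -0.0058 to 2.78 for Abcg2, -0.40 to 0.80 for Abcc4, -0.22 to 0.15 for Abcc5 and -0.0754 to 0.57 for Abcc10. Depth limits Abcb1a, Abcc2 and Abcc3, which have a few counts a library.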
